A study of Mus musculus with 2 samples.

Results

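The AP-1 and immediate-early genes described here are 10 genes chosen by name: Fos, Fosb, Jun, Junb, Jund, Egr1, Egr2, Atf3, Ier2 and Dusp1. All 10 had a single entry among the 20330 gene identifiers of the expression table, and all 10 passed the filter that left 10297 genes for comparison, an FPKM (fragments per kilobase of transcript, scaled to the number of mapped fragments) of at least 1 in either library. The measurements came from poly(A) RNA-seq of adipose tissue macrophages (ATM), sorted from visceral fat of C57BL/6 mice by F4/80 and CD11b. The WT mice were hMRP8cre-;Hif-1αfl/fl;ApoE-/- and the KO mice were hMRP8cre+;Hif-1αfl/fl;ApoE-/-, so that both groups carried the floxed Hif1a alleles and lacked ApoE, and they differed in the Cre transgene. All mice were placed on a high-fat diet at 4 weeks of age and kept on it for 12 weeks. The comparison asked which transcripts differ in ATM when myeloid cells lose Hif1a, the oxygen-regulated subunit of the hypoxia-inducible factor.

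Each genotype had 1 library, and how many animals went into each was not given. No spread between animals could therefore be measured, no test was made, and every difference below compares these libraries only. The human MRP8 promoter that drives Cre is active in myeloid cells, neutrophils among them, and the fraction of macrophages that had recombined was not analysed here. Hif1a itself was at 30.4 FPKM in WT ATM and 21 FPKM in KO ATM, a difference of -0.52 on the log2(FPKM + 1) scale that is used for every change below. This whole-gene value does not resolve the floxed exon. In bulk RNA, fewer cells that express a gene and less of its RNA per cell cannot be told apart. Apoe, whose disrupted allele both groups carried, was listed at 94.3 FPKM in WT ATM and 117 FPKM in KO ATM.

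Immediate-early genes are transcribed within minutes of a stimulus, because the factors that start their transcription are already present in the resting cell and need only be phosphorylated. Fos and Jun proteins pair through leucine zippers to form AP-1, which binds the TPA response element, while Egr1 and Egr2 are zinc finger factors that bind GC-rich sites. In macrophages these genes respond to microbial products, cytokines, growth factors and adhesion, and they also respond to tissue digestion and cell sorting. Handling and genotype cannot be told apart when each genotype has 1 library.

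The promoters of some of these genes carry short elements through which such signals can act, and the stretches below are shown because they hold such elements near the start of transcription. They were read from RefSeq promoters of build GRCm38.p6, which run from 250 bases before to 50 bases after each start, and 8 of the 10 genes had one. Egr1 and Ier2 are named only. Capitals mark the cyclic AMP response element (CRE, TGACGTCA) or its core TGACG in Fos, Junb and Dusp1, the variant TGACATCA in Jun, and the CArG box of serum response factor in Egr2. All are printed 5′ to 3′ on the strand of the gene, without bases of any annotated exon.
Fos, chr12:85473740-85473889, plus strand: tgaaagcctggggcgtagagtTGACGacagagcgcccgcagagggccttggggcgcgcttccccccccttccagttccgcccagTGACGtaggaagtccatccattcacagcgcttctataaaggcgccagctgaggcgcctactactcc
Junb, chr8:84978749-84978898, minus strand: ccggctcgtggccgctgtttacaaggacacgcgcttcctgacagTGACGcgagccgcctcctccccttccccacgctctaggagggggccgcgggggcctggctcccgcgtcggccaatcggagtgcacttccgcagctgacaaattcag
Jun, chr4:95052223-95052372, minus strand: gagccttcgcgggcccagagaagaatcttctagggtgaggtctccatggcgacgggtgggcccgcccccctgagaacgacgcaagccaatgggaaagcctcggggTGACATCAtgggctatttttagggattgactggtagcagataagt
Dusp1, chr17:26508520-26508622, minus strand: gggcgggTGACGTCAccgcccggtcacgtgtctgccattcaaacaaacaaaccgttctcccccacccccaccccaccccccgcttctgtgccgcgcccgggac
Egr2, chr10:67537787-67537816, plus strand: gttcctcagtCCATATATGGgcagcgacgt

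Egr2 has 5 listed starts and the other 7 genes have 1 each, so 1 window per gene was counted, the one whose start lay nearest to that of the GENCODE transcript. Of these 8 windows, 6 held the letters TGACG on either strand (Fos, Fosb, Junb, Egr2, Atf3 and Dusp1), against 20.8% of all 32851 RefSeq promoters of the same length. The full palindrome TGACGTCA, which contains TGACG, was in 1 of them, Dusp1, and in 1.79% of all promoters. The CArG box was in 1, Egr2, and in 1.63% of all. TGACATCA, a word added after the sequences were seen, was in 1, Jun, and in 3.62% of all. The AP-1 site TGACTCA or TGAGTCA was in 0 of the 8 windows and in 5.20% of all promoters, and the EGR site GCGTGGGCG was in 0 and in 0.612%. The core of the hypoxia response element, ACGTG or GCGTG, was in 6 of the 8 windows (all but those of Jun and Egr2) and in 43.8% of all. These are counts of letters in a short window, and binding was not measured.

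All 10 genes were abundant in both libraries, as the plot of FPKM by gene shows. The 10 together accounted for 0.845% of all FPKM in the WT library and 0.979% in the KO library, with sums of 4949 and 5565 FPKM. By the mean of both libraries the order of levels was Dusp1 (1218 FPKM), Junb (1074 FPKM), Egr1 (813 FPKM), Fosb (621 FPKM), Fos (534 FPKM), Atf3 (264 FPKM), Jund (263 FPKM), Ier2 (189 FPKM), Jun (167 FPKM) and Egr2 (114 FPKM). FPKM is scaled to transcript length, so these levels can be set side by side between genes. Without replicates, whether neighbours in this order differ beyond their spread could not be judged, and Atf3, Jund, Ier2, Jun and Egr2 change places between the libraries.

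**Figure D1:**
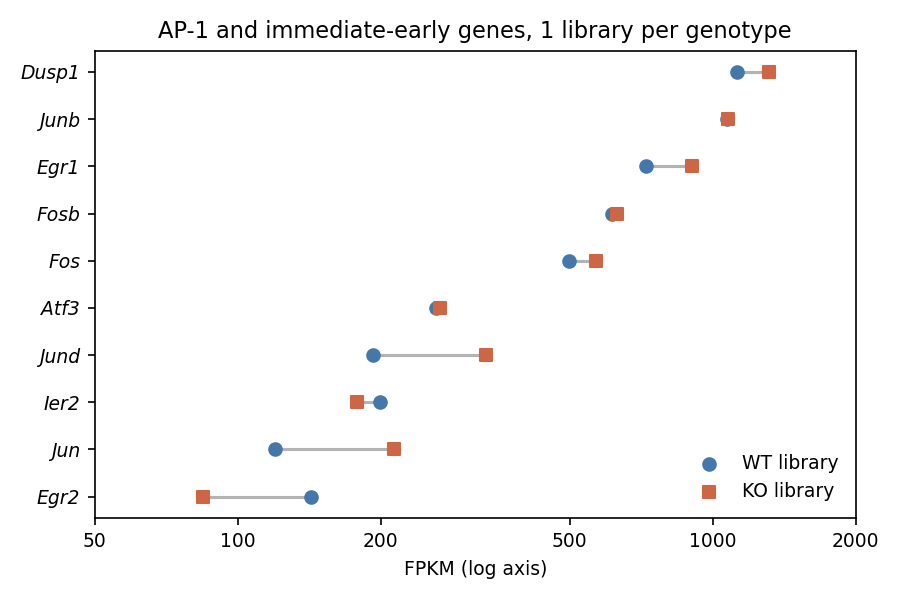
FPKM of the 10 genes in the WT library (circles) and the KO library (squares) on a log axis, ordered by mean level, with a line joining the values of each gene. Junb, Fosb and Atf3 have nearly overlapping symbols, Jun and Jund lie to the right in KO, and Egr2 lies to the left.

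Fos proteins need a Jun partner to bind DNA, and the members of this family, Fos and Fosb, were close between genotypes. Fos was at 499 FPKM in WT ATM and 569 FPKM in KO ATM, a log2 change of 0.19. Fosb was at 614 FPKM in WT ATM and 628 FPKM in KO ATM, a log2 change of 0.03. Fosb was the higher of the pair in each library, by 1.23-fold in WT and 1.10-fold in KO. Both stood high among the genes above 0, with Fos at rank 186 of 9773 in WT and rank 159 of 10124 in KO, and Fosb at ranks 157 and 145.

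The Jun proteins can pair with each other as well as with Fos, and their genes did not move alike. Junb, which often acts as a weaker activator than Jun and competes with it, was at 1073 FPKM in WT ATM and 1076 FPKM in KO ATM, a log2 change of 0.00. Jun, the strongest activator of the family, was at 119.7 FPKM in WT ATM and 213 FPKM in KO ATM, a log2 change of 0.83 and a ratio of 1.78. Jund, the member that most resting cells keep at a steady level, was at 193 FPKM in WT ATM and 333 FPKM in KO ATM, a log2 change of 0.78 and a ratio of 1.73. Jun and Jund kept nearly the same ratio to each other, with Jund 1.61-fold higher than Jun in WT and 1.56-fold higher in KO.

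The make-up of the Jun family therefore differed between the libraries, as the stacked bars show. Junb provided 77.4% of the summed Jun family FPKM in WT and 66.3% in KO. The share of Jund was 13.9% in WT and 20.5% in KO, and that of Jun was 8.64% and 13.2%. The ratio of Junb to Jun was 8.96 in WT and 5.04 in KO. Fos and Fosb together stood at 1114 FPKM in WT ATM and 1197 FPKM in KO ATM against 1386 and 1622 FPKM for the Jun family, a ratio of 0.80 in WT and 0.74 in KO.

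**Figure D2:**
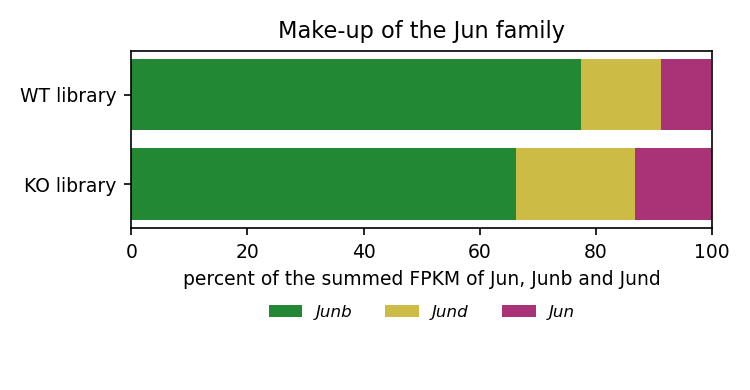
Percent of the summed FPKM of Jun, Junb and Jund that each gene provides, in 1 bar per library. The Junb segment covers 77.4% in WT and 66.3% in KO, and the segments of Jund and Jun are wider in KO.

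Of the Egr factors, Egr1 was the higher in KO and Egr2 the lower. Egr1, a zinc finger factor induced by serum response factor and its partners, was at 722 FPKM in WT ATM and 904 FPKM in KO ATM, a log2 change of 0.32. Egr2, a related factor with roles in myelination and in macrophage and lymphocyte activation, was at 143 FPKM in WT ATM and 84.7 FPKM in KO ATM, a log2 change of -0.75, or 1.69-fold lower. Egr1 was thus 5.04-fold above Egr2 in WT and 10.7-fold above it in KO. Egr2 was 1 of 2 members with the lower value in KO, the other being Ier2, and the only member under 100 FPKM in a library.

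Atf3, a stress-induced bZIP factor that restrains inflammatory transcription, was at 262 FPKM in WT ATM and 266 FPKM in KO ATM, a log2 change of 0.02. Ier2, a small nuclear immediate-early protein, was at 199.7 FPKM in WT ATM and 178 FPKM in KO ATM, a log2 change of -0.16. Dusp1, the phosphatase that inactivates p38 and JNK and so dampens the signals that induce AP-1, was at 1124 FPKM in WT ATM and 1313 FPKM in KO ATM, a log2 change of 0.22. It was the most abundant member in each library, at rank 83 in WT and rank 61 in KO. Of these 3 genes none differed by as much as 1.5-fold.

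The members' changes ran from -0.75 (Egr2) to 0.83 (Jun), with 8 higher and 2 lower in KO and a median of 0.11. The median over the 10297 genes compared was 0.03. The study used a 3-fold threshold for its gene lists and states no pseudocount. Here, on the log2(FPKM + 1) scale, none of the 10 members passed 3-fold, while 27.3% of all genes compared passed it in either direction. That share was highest among low genes. It was 54.1% at a mean of 1 to 5 FPKM, 26.6% at 5 to 20 FPKM and 9.80% at 20 to 100 FPKM. Among the 748 genes at a mean of at least 100 FPKM, the range that holds all 10 members, it was 2.14%, and 0 of 10 members is close to that background.

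A 1.5-fold threshold, chosen after the values were seen, was passed by 2 members in the direction of higher in KO, Jun and Jund, where 10.3% of those 748 genes passed it. It was passed by 1 member in the direction of lower in KO, Egr2, where 11.2% of the 748 passed it. With so few members, these counts do not set the 10 genes apart from other genes of their level. The middle 50% of the 748 genes lay between -0.30 and 0.28, and 6 members fell inside that range. The 5th and 95th percentiles were -0.97 and 0.77, and Jun and Jund were the members outside them. A change at least as large as that of Jun, in either direction, was found in 10.8% of the 748 genes, as large as that of Jund in 11.6%, and as large as that of Egr2 in 13.0%. The median of the 748 genes was -0.01.

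**Figure D3:**
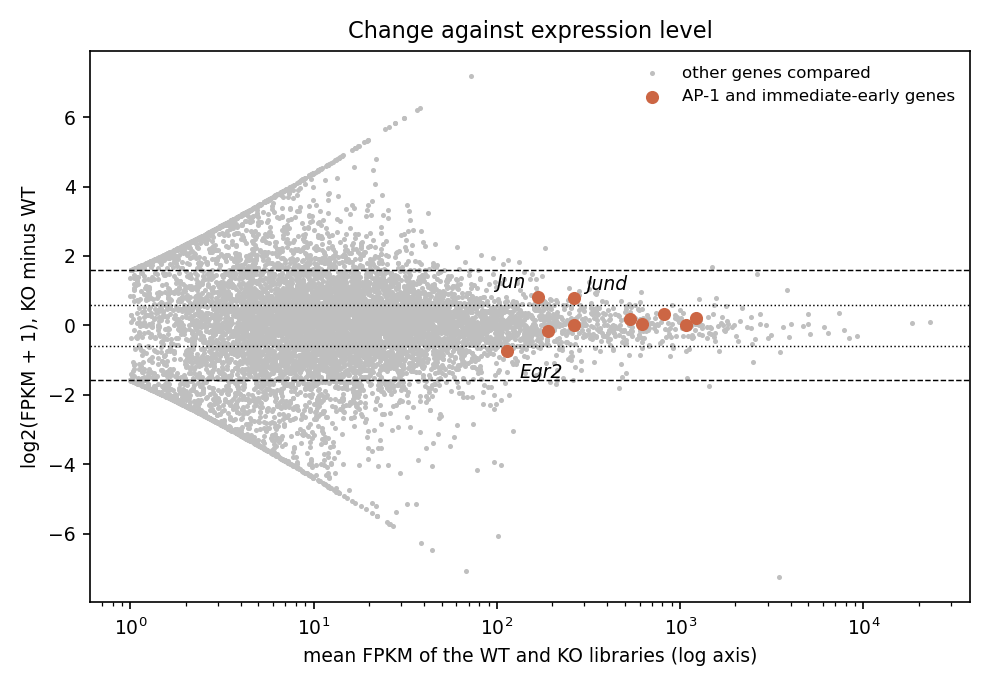
KO minus WT difference of log2(FPKM + 1) against mean FPKM on a log axis, 1 point per gene compared, with dotted lines at 1.5-fold and dashed lines at 3-fold. All 10 members, in orange, lie at a mean above 100 FPKM within the dashed lines, and Jun, Jund and Egr2 lie past the dotted lines.

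With each estimated fragment taken as an independent count, counting error was small beside the differences of Jun and Egr2. From the smallest recurring step of FPKM times transcript length, depth was estimated at 5870000 fragments in WT and 7470000 in KO. The members then rested on an estimated 1784 to 30265 fragments each. Jun rested on about 2241 fragments in WT (exact Poisson 95% interval 2149 to 2336) and 5081 in KO (4942 to 5223), and Egr2 on 2490 (2393 to 2590) and 1876 (1792 to 1963). These intervals cover counting error alone and say nothing of the spread between mice. They also take no account of copies made when the libraries were amplified, so they can be too narrow.

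The members differ in gene structure. Jun, Junb, Jund and Ier2 have 1 exon, so reads from genomic DNA or unspliced RNA cannot be told apart from their mRNA. Among the 13 single-exon genes, these 4 included, at a mean of at least 100 FPKM the median change was 0.00, with a range of -1.29 to 1.02. The transcripts of the members span 1522 nucleotides (Ier2) to 4484 nucleotides (Egr1), with a GC content from 51.4% (Egr2) to 67.1% (Jund). Ordered by GC content into 4 equal groups, genes at a mean of at least 100 FPKM had median changes of 0.00, -0.02, 0.04 and -0.03 from lowest to highest. For 4 such groups by transcript length the medians were -0.14, -0.05, -0.01 and 0.11 from shortest to longest. The part of length in the members' values was not tested.

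The other bZIP partners with which Fos and Jun share dimers gave a mixed picture, and of 14 compared, 7 were higher and 7 lower, with a median of -0.01 that became 0.07 where 1 FPKM was required of each library. Among the 5 at a mean of at least 100 FPKM, Jdp2, a repressor that pairs with Jun, was at 145 FPKM in WT ATM and 248 FPKM in KO ATM (0.77), and Atf4, the effector of the integrated stress response, was at 364 and 590.0 FPKM (0.70). These were the 2 of 5 that passed 1.5-fold in that range, where 10.3% of all 748 genes were that much higher in KO. Fosl2, a Fos-related partner of Jun, was at 175 and 207 FPKM (0.24).

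Lower in abundance, the small Maf proteins, which lack a transactivation domain, went in different directions. Mafk was at 37.5 FPKM in WT ATM and 103 FPKM in KO ATM (1.44), and Mafg was at 9.49 and 23.6 FPKM (1.23), whereas Maff was at 96.8 and 52.3 FPKM (-0.87). Batf2 was at 6.95 and 3.42 FPKM (-0.85). Fosl1, named after its values were seen, was the 1 partner past 3-fold: it was at 10.8 FPKM in WT and was listed at 0 in KO. Of the 9 partners under a mean of 100 FPKM this 1 is 11.1%, against 29.3% of all genes compared in that range.

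A list of 43 other immediate-early genes had a lower median level than the 10 members. That median was 94.9 FPKM in the WT library and 112 FPKM in the KO library, against 381 and 451 FPKM for the members. Of the 43, 23 (53.5%) had a mean of at least 100 FPKM, a level reached by 7.26% of all genes compared, and the 43 accounted for 1.51% and 1.70% of all FPKM. Of the 42 others compared, 24 were higher and 18 lower in KO, with a median of 0.13. The highest were Zfp36, which binds AU-rich elements and promotes decay of cytokine mRNA, at 2030.1 FPKM in WT ATM and 2223 FPKM in KO ATM (0.13), Ier3, an early survival gene, at 940.2 and 1083 FPKM (0.20), and the orphan nuclear receptor Nr4a1 at 608 and 489 FPKM (-0.31).

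Past 3-fold stood 4 of these 42 genes, 3 of them higher and 1 lower. All 4 were among the 19 under a mean of 100 FPKM, a share of 21.1% against the 29.3% of all genes in that range. Cebpd, a factor of the acute phase response, was at 4.40 FPKM in WT ATM and 19.7 FPKM in KO ATM (1.94). Arc, best known from neurons, was at 4.27 and 16.2 FPKM (1.71), and Myc, a factor that drives growth and division, was at 11.4 and 37.3 FPKM (1.63). Id1, an inhibitor of basic helix-loop-helix factors, was at 5.51 FPKM in WT ATM and 0.529 FPKM in KO ATM, and Ccn1, a secreted matrix protein, was at 8.04 and 2.87 FPKM (-1.22). Of the 23 genes at a mean of at least 100 FPKM none passed 3-fold, against 2.14% of all 748 genes at that level, and their changes ran from -0.62 to 0.73.

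**Figure D4:**
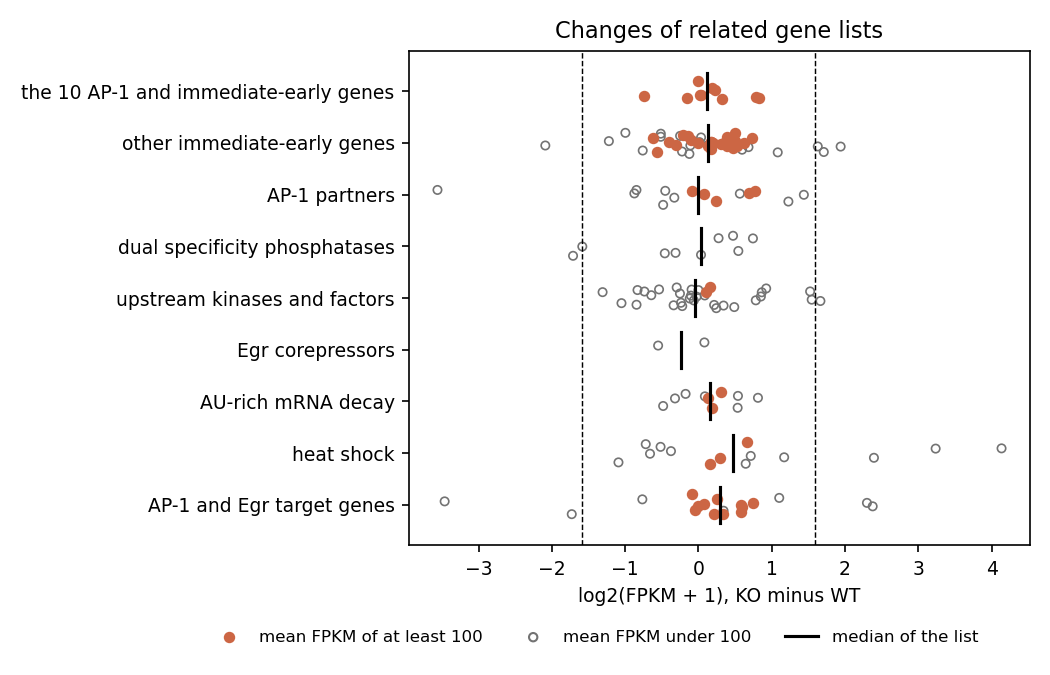
KO minus WT difference of log2(FPKM + 1) for each gene of the 10 members and 8 related lists, filled where the mean is at least 100 FPKM and open where it is lower, with a bar at each list's median and dashed lines at 3-fold. The members' median is 0.11, the list medians run from -0.23 to 0.47, and the points past the dashed lines are open symbols.

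The kinases and factors that switch on immediate-early genes were mostly of low or moderate level. Of 32 compared, 14 were higher and 18 lower in KO, with a median of -0.04. Mapkapk2, the kinase downstream of p38, was at 170.3 FPKM in WT ATM and 189.5 FPKM in KO ATM (0.15), Map2k3, which activates p38, was at 104 and 112 FPKM (0.10), and Mapk3, encoding ERK1, was at 94.5 and 88.5 FPKM (-0.09). The largest differences lay at low levels. Srf, the factor that binds the CArG box, was at 8.07 and 25.5 FPKM (1.55), and Rps6ka3, a ribosomal S6 kinase, was at 9.97 and 30.5 FPKM (1.52). Elk1, a partner of serum response factor, was at 24.8 and 9.41 FPKM (-1.31), and Mapk7, encoding ERK5, was at 17.9 and 8.12 FPKM (-1.05). Srf and Rps6ka3 had plain FPKM ratios of 3.16 and 3.06, which fall short of 3-fold on the log2(FPKM + 1) scale. On that scale 1 of the 32 (3.12%) was past 3-fold, Rps6ka5, with 2.17 FPKM in KO ATM and a listed 0 in WT ATM. Of the 30 under a mean of 100 FPKM this 1 is 3.33%, against 29.3% of all genes compared in that range.

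Among the genes that limit the response, the largest difference was that of Dusp2. The corepressors that bind Egr proteins were Nab1, at 33.5 FPKM in WT ATM and 22.6 FPKM in KO ATM (-0.55), and Nab2, at 47.1 and 49.9 FPKM (0.08). Of 9 further dual specificity phosphatases compared, 5 were higher and 4 lower, and 2 (22.2%) were past 3-fold, against 29.3% of all genes compared under a mean of 100 FPKM, where all 9 lay. Dusp2, a nuclear phosphatase of activated leukocytes, was at 74.2 FPKM in WT ATM and 22.0 FPKM in KO ATM (-1.71), and Dusp9 was at 2.0 FPKM in WT and listed at 0 in KO. Dusp1 was therefore 15.1-fold above Dusp2 in WT and 59.8-fold above it in KO. Dusp5 was at 63.6 and 51.0 FPKM (-0.31) and Dusp3 at 49.5 and 35.7 FPKM (-0.46), while Dusp10, Dusp8 and Dusp16 had changes of 0.74, 0.54 and 0.47.

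Proteins that bind or degrade AU-rich mRNAs, the class to which Fos and many early transcripts belong, had 7 of 10 genes higher in KO and a median of 0.16. Past 3-fold were 0 of the 7 under a mean of 100 FPKM, against 29.3% of all genes compared in that range, and 0 of the 3 above it. Zfp36l1 was at 347 FPKM in WT ATM and 432 FPKM in KO ATM (0.31) and Zfp36l2 at 248 and 281 FPKM (0.18). Zfp36, counted above, is in this list too. The largest changes were of genes under 20 FPKM in both libraries, Cnot8 at 0.81, Hnrnpd at 0.54, Cnot6 at 0.53 and Khsrp at -0.48.

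Heat-shock genes respond to protein damage and to cell handling, and 9 of 14 had their higher value in KO ATM, the median was 0.47 and 3 (21.4%) were past 3-fold. All 3 were among the 11 under a mean of 100 FPKM, a share of 27.3% against 29.3% of all genes compared in that range. The median was 0.30 where 1 FPKM was required of each library and 0.64 at a mean of at least 5 FPKM. Hspa8, the constitutive chaperone, was at 1215 FPKM in WT ATM and 1357 FPKM in KO ATM (0.16), and Hsp90ab1 was at 411 and 504 FPKM (0.30). The inducible Hsp90aa1 was at 84.4 and 135 FPKM (0.67), and the mitochondrial Hspe1 was at 45.0 and 102 FPKM (1.17). Hspa1a was at 7.28 and 77.1 FPKM (3.24), and Hspa1b was at 11.9 and 66.9 FPKM (2.39). These paralogs encode nearly identical transcripts, so the split of reads between them is uncertain. Hspb1, named after its values were seen, had 16.6 FPKM in KO ATM and was listed at 0 in WT ATM. Hsf1, the factor that activates these genes, was at 26.1 and 11.7 FPKM (-1.09). Their part in the values of Jun, Jund and Egr2 was not tested.

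Genes known as targets of AP-1 or Egr factors had 12 higher and 6 lower of 18 compared, with a median of 0.29, and 4 (22.2%) were past 3-fold, 2 in each direction, against 27.3% of all genes compared. All 4 were among the 7 targets under a mean of 100 FPKM, a share of 57.1% against 29.3% of all genes compared in that range. The 11 at a mean of at least 100 FPKM had changes from -0.08 to 0.75. Cxcl2, a neutrophil chemokine, was at 4416 FPKM in WT ATM and 5549 FPKM in KO ATM (0.33), Ccl3, a chemokine for monocytes, was at 1221 and 1833 FPKM (0.59), and Vim, an intermediate filament gene, was at 1487 and 1435 FPKM (-0.05). Il1b was at 173 FPKM in each library.

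Spp1, encoding osteopontin, was at 103 FPKM in WT ATM and 8.41 FPKM in KO ATM (-3.46), and Ptgs2, encoding the inducible cyclooxygenase, was at 45.1 and 12.9 FPKM (-1.73). Il6 was at 1.41 and 10.9 FPKM (2.30), and Timp1 had 4.20 FPKM in KO ATM and was listed at 0 in WT ATM. Mmp13, a collagenase, was at 7.33 and 16.9 FPKM (1.10).

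Both libraries carried the macrophage markers. All 9 macrophage markers in the table were above 0 in both libraries, with sums of 6588 FPKM in WT ATM and 7011 FPKM in KO ATM. Neutrophil markers summed to 159 FPKM in WT ATM and 531 FPKM in KO ATM, with 7 of 10 higher and 0 lower in KO. S100a8 was at 73.3 and 182 FPKM and S100a9 at 63.4 and 301 FPKM. Csf3r was at 15.5 and 24.1 FPKM and Cxcr2 at 5.83 and 7.96 FPKM. Lcn2 was at 0.960 and 9.79 FPKM, Retnlg at 0.385 and 2.46 FPKM, and Ngp at 0 and 2.61 FPKM. Camp, Ltf and Mmp8 were at 0 in both. Fibroblast markers summed to 43.2 and 84.3 FPKM, with all 6 higher in KO, and monocyte markers to 45.5 and 33.8 FPKM, with 3 higher and 3 lower, among them Ccr2 at 29.4 and 9.78 FPKM and Plac8 at 1.58 and 17 FPKM. Of the 5 eosinophil markers Siglecf, Epx and Prg2 were at 0 in both libraries, and the sum of 6.50 and 33.1 FPKM came from Alox15 and Ccr3. All 5 T and NK cell markers in the table were at 0 in both libraries. Of the 6 adipocyte markers, Adipoq, Plin1 and Retn were at 0 in both libraries, Cidec was at 5.83 FPKM in WT ATM and 0 in KO ATM, and Lep was at 0 and 1.60 FPKM. The adipocyte sum of 463 and 221 FPKM was almost wholly Lpl, a lipase that macrophages also make, at 457 and 219 FPKM. The part of these other cells in the members' values was not tested.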

How the data were processed

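Per the labels and the study's methods, poly(A) RNA of sorted ATM was reverse transcribed with random hexamers, amplified and sequenced, and the submitters' processing notes name CASAVA 1.8.2, TopHat2 2.0.9, Cufflinks 2.2.1 and build mm9. The authors deposited 1 table of FPKM values, normalised by them to transcript length and mapped fragments, with 1 column per genotype; the column headed mut was taken as KO. Of its 20749 entries, 401 exact repeats were dropped and 18 were summed with another of the same identifier, which left 20330 identifiers, 98.5% with a symbol. Summed FPKM was 585823 in WT and 568329 in KO.

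Changes are KO minus WT of log2(FPKM + 1) among genes with FPKM of at least 1 in either library. A pseudocount of 1 understates the changes of low genes. No test, p-value or count model was used, because each genotype has 1 library. Transcript lengths, exons and GC content came from GENCODE M21, used for these features and not for coordinates of the mm9 values. Depth was estimated from the smallest recurring FPKM times length, a step tested on simulated data. Named genes were all 10 members and, from each related list, the 3 highest by mean FPKM and up to 4 with the largest change among those with FPKM of at least 1 in both libraries; genes named outside this are the others past 3-fold, single values within a family and the ratio of Dusp1 to Dusp2, all chosen after their values were seen. For 1 gene that this rule names, the values are not reported here. The members and lists were chosen with earlier results of these data known. Of the list and marker genes, 4 had no entry (Atf7, Cd68, Ly6g and Trac). Alternatives changed the pseudocount, the filter, the threshold, the scaling and the summing of repeated identifiers. Protein identity between members was planned and not run. Python 3.11.15, pandas 2.3.3, NumPy 2.4.6, SciPy 1.17.1 and matplotlib 3.10.9 were used.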

Additional observations from a re-analysis of the deposited data

How the results depend on the processing

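The sign of each member's change was the same under every alternative run, with Jun at 0.83 to 0.87, Jund at 0.78 to 0.83, Egr2 at -0.76 to -0.71 and Junb at 0.00 to 0.05. The members' median ranged from 0.11 to 0.15, and that of the genes compared from -0.01, among those at a mean of 100 FPKM or more, to 0.07. Of the related lists, the median of the bZIP partners ran from -0.01 to 0.24 and that of the kinases and factors from -0.08 to 0.12, so that both took either sign, and that of the heat-shock genes ran from 0.30 to 0.64 and that of the phosphatases from 0.03 to 0.15, while the medians of the 4 lists not named here kept their sign. Members past the threshold numbered 0 in either direction at 3-fold and at 2-fold, and 2 higher and 1 lower at 1.5-fold, a threshold added after the data were seen. Counts over all genes depended on the filter, the threshold and, less, the pseudocount. At 3-fold, 1402 genes were higher and 1413 lower in KO; requiring 1 FPKM or more from each library left 429 and 447, a mean of 5 FPKM or more left 598 and 646, and a mean of 100 FPKM or more, added after the data were seen, left 5 and 11. A pseudocount of 0.1 gave 1903 and 1849, and one of 0.01 gave 1931 and 1877. At 2-fold the counts were 2380 and 2314, and at 1.5-fold they were 3293 and 3110. The share of calls that were higher in KO was 49.8%, from 48.1% to 51.4% under the other settings and 31.2% at a mean of 100 FPKM or more. No paired analysis was possible because neither genotype had a replicate, and for the same reason no library could be left out. Of genes with a mean from 1 to 5 FPKM, 36.9% were listed at 0 in 1 library, and of those from 5 to 20 FPKM 7.45%, and the part of depth in this was not tested.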

Other observations

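Further families within the list of other immediate-early genes are given here as values, chosen after they were seen. Genes of the Id and Krüppel-like families differed in opposite directions. Of the inhibitors of basic helix-loop-helix factors, Id2 was at 158 FPKM in WT ATM and 263 FPKM in KO ATM and Id3 at 33.9 and 72.9 FPKM, while Id1 was at 5.51 and 0.529 FPKM. Of the Krüppel-like factors, Klf4 was at 276 and 179 FPKM, whereas Klf6 was at 207 and 297 FPKM, Klf2 at 49.1 and 74.6 FPKM and Klf10 at 103 and 135 FPKM. The Nr4a orphan receptors were each lower in KO, with Nr4a1 at 608 and 489 FPKM, Nr4a3 at 173 and 130.0 FPKM and Nr4a2 at 53.3 and 48.9 FPKM. Of the Gadd45 stress genes, Gadd45a was at 26.1 and 12.6 FPKM, Gadd45b at 403 and 347 FPKM and Gadd45g at 94.9 and 97.2 FPKM. Cebpb, a bZIP factor of inflammatory macrophages, was at 108 and 166 FPKM. With 1 library per genotype none of these differences was tested.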
